A study of Mus musculus with 4 samples.

Results

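Of the 4638 Zac1 peaks analysed here, 569 (12.3%, exact 95% interval 11.3% to 13.2%) had inverted strand summits of ChIP fold over input. In these, the reverse-strand fold summit lay before the forward-strand fold summit. By read number, 204 of the 569 were inverted as well and 365 had the usual order. The 569 were chosen by the summit distance in the authors' deposited table, taken at 0 bp or less, and are called inverted peaks here. The series mapped Zac1 binding in a cell line derived from a mouse neuroblastoma, Neuro-2A, for which the labels name the strain Swiss Albino. Cells were transfected with the expression plasmid pRK5-Zac1 by Lipofectamine and fixed after 16 hours, and chromatin was precipitated with an in-house antibody to Zac1 (2 ChIP libraries) or kept as input (2 libraries, no antibody). All 4 libraries come from transfected cells of 1 line, so every site was measured under Zac1 overexpression. Each peak has a single ChIP value and a single input value, and whether both libraries entered each value is not given in the sources used here. There was thus no spread between replicates, values carry no SD, and no test was made.

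Zac1 (Plagl1) is a zinc finger transcription factor of the PLAG family, encoded by an imprinted gene that is expressed from the paternal allele. It binds GC-rich DNA, arranged as palindromes or as repeats, and can activate or repress transcription. In ChIP-seq, the ends of the precipitated fragments are sequenced. Reads on the forward strand pile up before a bound site and reads on the reverse strand after it, so a single site has its forward summit first. Sites lying side by side within 1 region can put the highest forward and reverse piles at different sites, and the order can then invert.

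The inverted peaks formed the lower tail of 1 continuous distribution, with no gap at the limit. Their summit distance ranged from -373 to 0 bp with a median of -31 bp, against 1 to 653 bp with a median of 76 bp in the other 4069 peaks. In 106 inverted peaks it was -100 bp or less, in 188 it was -99 to -30 bp, in 158 it was -29 to -10 bp and in 117 it was -9 to 0 bp. The deposited distance counts both ends, so a value of 0 means that the reverse summit lay 1 bp before the forward summit, and a value of 1 means that both lay at the same base. The summits used are those of fold over input and not of read number: the deposited distance equalled the positions of the largest fold on each strand in all 4638 peaks. At the edge of the rule, the 13 peaks at 0 bp had a median of 65 ChIP reads and the 13 peaks at -1 bp a median of 76, while the 12 peaks at 1 bp had 80.5 and the 11 peaks at 2 bp had 83.

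**Figure D1:**
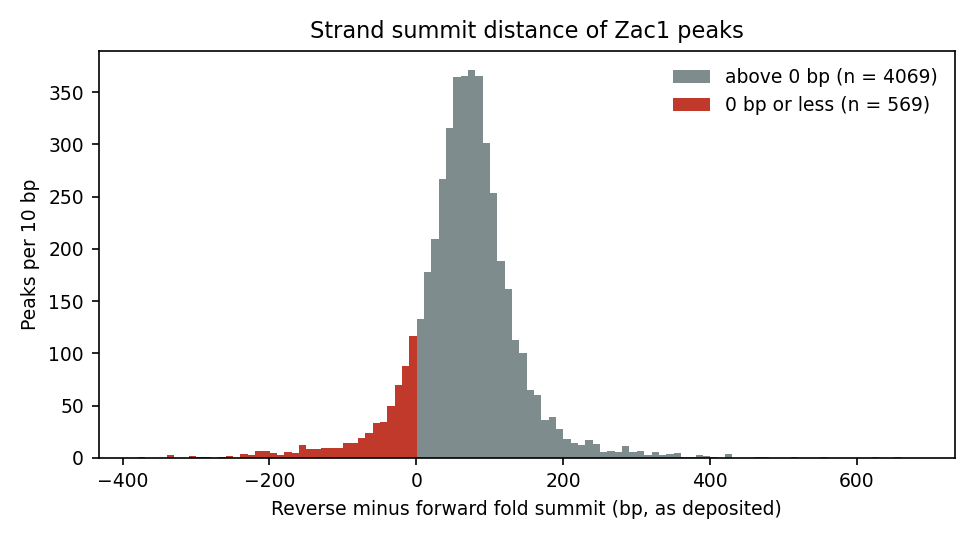
Number of peaks per 10 bp of summit distance, the reverse minus the forward fold summit as deposited. Inverted peaks (red, n = 569) are the lower tail of the distribution of all peaks, whose other members (grey, n = 4069) have a median of 76 bp.

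Inverted peaks were listed as long regions, but the listed lengths of the 2 sets were not made in the same way. Their listed length had a median of 391 bp (interquartile range 307 to 487), and that of the other peaks a median of 76 bp (48 to 108). In all 3590 peaks with a summit distance of 29 bp or more, the region started at the forward fold summit and ended at the reverse fold summit, so its length was the summit distance itself. In all 479 peaks with a distance of 1 to 28 bp the region was 29 or 30 bp long. The same held for the 13 inverted peaks at exactly 0 bp, each listed at 30 bp. In the 556 peaks with a distance below 0 bp, neither rule applied, and the regions were 200 to 882 bp long with both summits inside them. The change fell between adjacent values: at -1 bp the 13 peaks were 243 to 482 bp long. In the other peaks the listed region left out part of what had been measured, since 3478 of 4069 (85.5%) had a recorded read or fold maximum outside it, against 12 of 569 inverted peaks (2.11%), all of them at exactly 0 bp. The listed lengths therefore do not show that inverted peaks were broader, and the working description of these peaks as broad sites was not borne out by the length column.

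**Figure D2:**
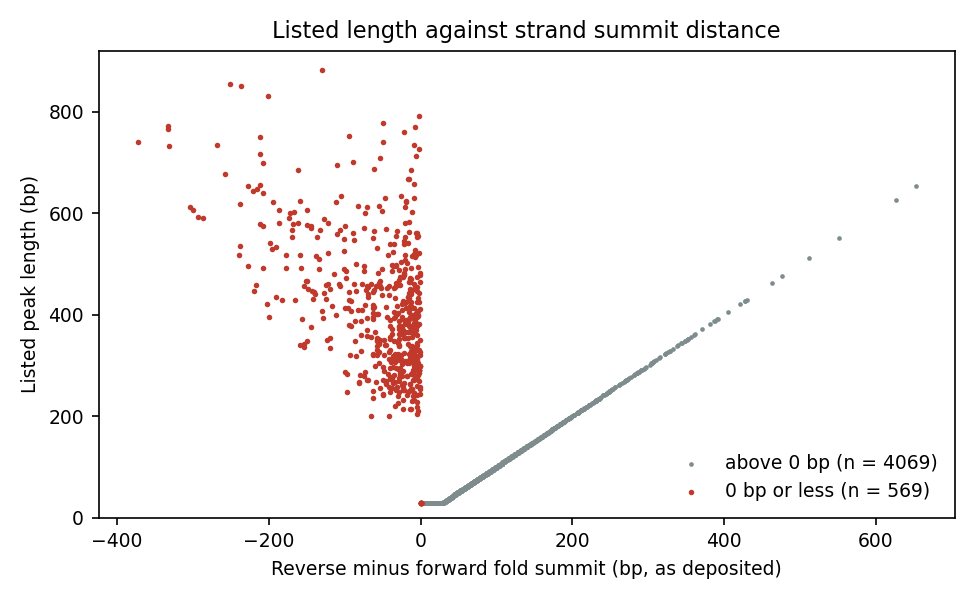
Listed length of each peak against its summit distance, both in bp. Grey peaks (above 0 bp, n = 4069) lie on the line of equal length and distance, or at 29 or 30 bp, and red peaks (0 bp or less, n = 569) jump to 200 bp or more as soon as the distance is below 0 bp.

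A width that can be compared is the stretch spanned by the recorded maxima of reads and fold on both strands, ChIP and input, which the table gives for every peak whatever its listed region. This span had a median of 158 bp (105 to 232) in inverted peaks and 141 bp (107 to 197) in the others. Inverted peaks held more reads, so the others were weighted to the same ChIP read numbers in 10 bins. After this matching the median of the other peaks was 161 bp, 3 bp more than in inverted peaks. The span was higher in inverted peaks in 2 of 10 bins, with differences of medians from -16.5 to 12.5 bp. The listed length, by contrast, was higher in all 10 bins, by 181 to 567.5 bp. Part of the span is set by the summits that chose the peaks. The span also rose with read number in both sets, so matching on reads evened out part of any difference in span. The rule did not use the distance between the forward and reverse maxima of the input as such. Its median was 87 bp in the 459 inverted peaks with input reads on both strands. In the 2765 such peaks among the others it was 87 bp, with the weights made for all peaks. The busiest input window held a median of 3 reads in inverted peaks and 2 in the others, so these maxima rest on few reads.

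**Figure D3:**
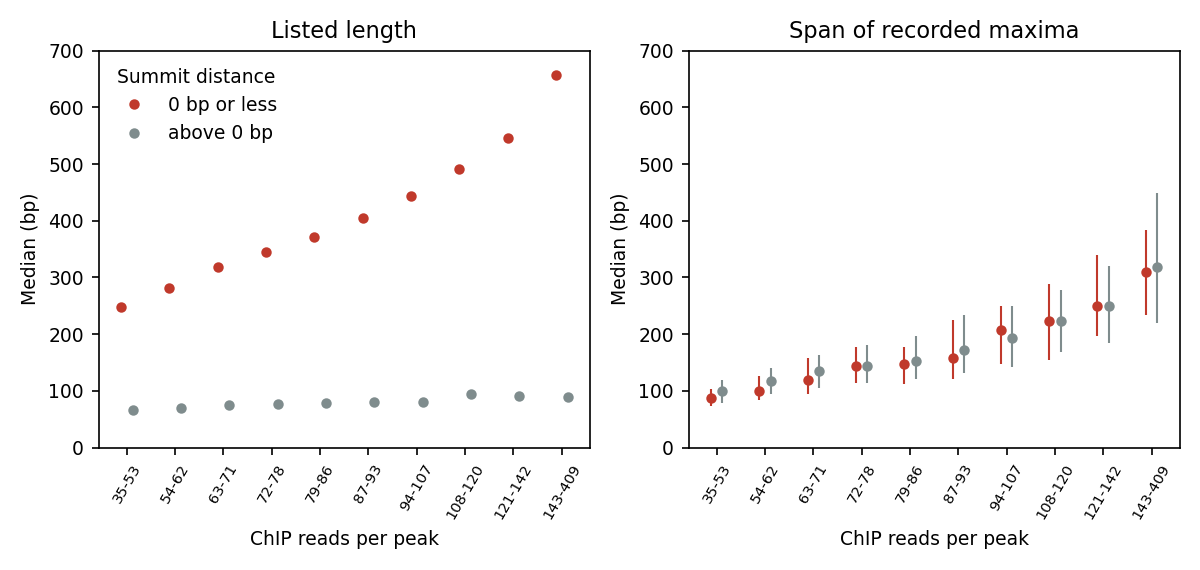
Medians of listed length (left) and of the span of recorded maxima (right, bars are the interquartile range) in 10 bins of ChIP reads per peak, for inverted (red) and other peaks (grey). The listed lengths are apart in every bin, while the spans overlap in every bin and rise together with read number.

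Inverted peaks held somewhat more ChIP reads in all, but not in their busiest window. The median was 87 reads (67 to 114, highest 282) against 73 (59 to 95, highest 409), a ratio of 1.19. The share of inverted peaks rose with read number, from 8.09% of peaks with 35 to 53 ChIP reads to 20.7% of those with 108 to 120 and 19.5% of those with 143 or more. The busiest window of both strands together held a median of 36 reads in inverted peaks and 35 in the others, but 37 in the others at matched ChIP reads. On single strands the busiest window held a median of 20 forward and 20 reverse reads in both sets, and 21 of each in the others after matching. Peaks strong on both strands, with 28 or more reads in the busiest windows of both strands, were 22 of the inverted peaks (3.87%) and 4.64% of the others, or 7.60% at matched ChIP reads. The reads of inverted peaks were less concentrated, with a median of 43.0% in the busiest window against 48.8%, but at matched ChIP reads the others stood at 44.0%. Both strands were evenly represented: 49.8% of ChIP reads in inverted peaks and 50.1% in the others were on the forward strand. The strand balance in the authors' deposited table is the smaller over the larger of the strands' largest window folds. Its median was 0.82 in inverted peaks and 0.85 in the others. Peaks whose read summits were inverted too, described further on, stood at 0.87, and the remaining inverted peaks at 0.77. At matched ChIP reads the others stood at 0.85 in both comparisons.

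Inverted peaks as a whole held more input reads than other peaks at matched ChIP reads, but those inverted by reads too, described further on, held fewer. The rule used fold over input, so input reads were among the values that chose the peaks, and the input values here are a description. Inverted peaks held a mean of 5.55 input reads (exact Poisson 95% interval 5.36 to 5.75, counting error only). The others held 4.22, or 4.81 at matched ChIP reads, a ratio of 1.15 (1.11 to 1.20, with the matched mean taken as fixed). The mean was higher in inverted peaks in all 10 bins of ChIP reads, by 0.04 to 1.54 reads. The difference was largest at 35 to 53 ChIP reads (4.07 against 2.53) and smallest at 143 or more (8.56 against 8.52). No input read was counted in 13 inverted peaks (2.28%) and in 229 others (5.63%, or 4.15% at matched ChIP reads). Over all inverted peaks, 53742 ChIP reads faced 3158 input reads, a 24.4-fold excess over input scaled by 0.6961 (exact 95% interval 23.6 to 25.3). The other peaks stood at 27.99-fold (27.6 to 28.4). Of the inverted peaks, 548 (96.3%) had a lower limit of the fold above 5, against 97.6% of all 4638 peaks. Every region was selected for enrichment on these reads, so nothing is read from that count. The largest window fold in the authors' deposited table had a median log2 value of 4.95 in both sets, but 5.04 in the others at matched ChIP reads.

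The order of the summits depended on whether fold or reads placed them. By the positions with the most ChIP reads on each strand, 204 of the 569 peaks (35.9%, 31.9% to 39.9%) were inverted as well, and 365 had the usual order. Among the other peaks, 112 of 4069 (2.75%) were inverted by reads, so that the peaks inverted by fold made up 204 of the 316 inverted by reads (64.6%). The read summits of inverted peaks were a median of 26 bp apart in the usual direction, against 74 bp in the other peaks. The fold summit lay a median of 19 bp from the read summit on the forward strand and 17 bp on the reverse strand, while both medians were 0 bp in the other peaks. Fold and read summits fell on the same base on both strands in 98 inverted peaks (17.2%), where both orders are the same by definition, and in 36.1% of the others.

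**Figure D4:**
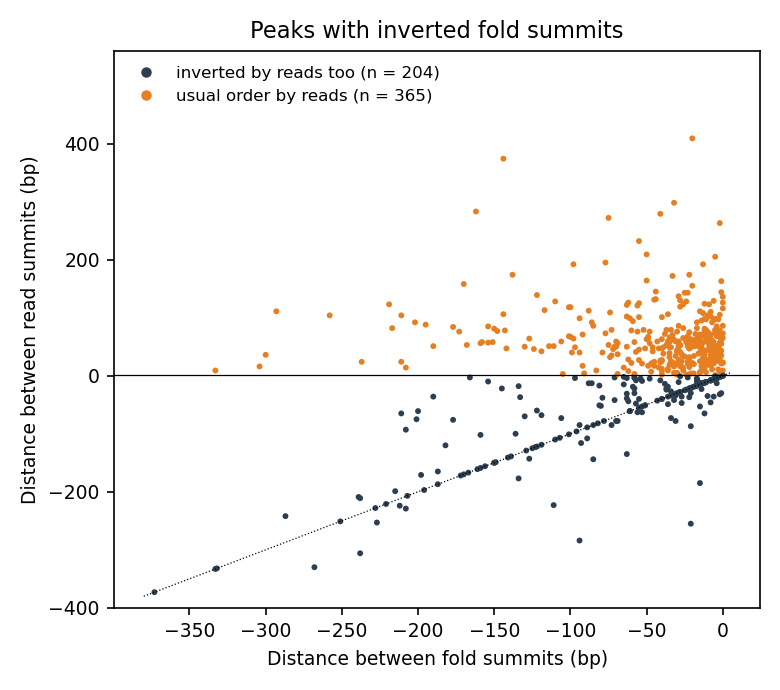
Distance between the read summits against the distance between the fold summits, in bp, for the 569 inverted peaks; the dotted line marks equality and the solid line the change of order. The 204 dark peaks are inverted by both measures and many lie on the dotted line, while the 365 orange peaks have the usual order by reads.

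The 2 kinds of inverted peaks differed in input, a contrast partly set by the split itself. Without input reads the fold follows the ChIP reads, so the 2 orders can differ only where input was counted. No input read was counted in 13 of the 204 inverted by both measures and in 0 of the 365 inverted by fold alone. Those inverted by fold and reads held a mean of 4.68 input reads, 0.90 times that of other peaks at matched ChIP reads, and those inverted by fold alone held 6.04, or 1.30 times. The busiest input window showed the same, at 0.95 and 1.28 times. The largest window fold in the authors' deposited table had a median log2 value of 5.04 in the first kind and 4.86 in the second, against matched values of 5.09 and 5.00. The pooled excess over scaled input was 31.5-fold (29.5 to 33.6) and 21.4-fold (20.5 to 22.4). On both strands, the fold summit held the most ChIP reads of that strand and no input read in 115 of the 204 peaks inverted by both measures (56.4%) and in 8 of the 365 inverted by fold alone (2.19%). In the other peaks this share was 42.1%. Among inverted peaks with such input-free summits, 115 of 123 (93.5%) were inverted by reads, against 89 of 446 (19.96%) of the remaining ones. At an input-free summit with the most reads, the fold summit is nearly the read summit by construction. These quantities share their reads with the rule and are given as a description. The part of input reads in the order of the summits was not tested. Neither kind had a higher median span than other peaks at matched ChIP reads. The medians were 169 bp against 176 bp for the first kind and 147 bp against 154 bp for the second. The span is partly set by the summits that chose the peaks and rose with read number, so these values do not show equal width.

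The 106 peaks with a summit distance of -100 bp or less had more ChIP reads than the other inverted peaks. They had a median of 115.5 ChIP reads (94 to 147.5), while the classes nearer to 0 bp had 81.5, 86 and 77. A distance of this size needs a long region, so read number is not independent of the class. The listed length had a median of 534 bp, against 377, 367 and 324 bp. Reads per 100 bp of listed length were level, with medians of 21.5 against 21.3, 22.1 and 22.4. The busiest window of the 106 peaks held a median of 30.7% of their ChIP reads, against 36.2% in peaks in the usual order at matched ChIP reads. Their recorded maxima spanned a median of 264.5 bp, against 219 bp after the same matching, but a distance of this size is itself part of the span. The distance between the input maxima, which the rule did not use as such, had a median of 109 bp in both. It covers the 91 and 2765 peaks with input reads on both strands and rests on few reads. By reads, 60 of the 106 (56.6%) were inverted, against 35.6%, 29.1% and 26.5% in the classes nearer to 0 bp and 6.47% in peaks at 1 to 28 bp. Fold and read summits are placed by the same ChIP reads. This order and the busiest-window share are thus not independent of the distance that made the classes. Their mean of 6.54 input reads stood against 6.12 at matched ChIP reads, and their pooled excess was 27.1-fold (25.1 to 29.2). Another peak lay within 100 kb of 95.3% of them, and of 82.4%, 76.6% and 90.6% in the classes nearer to 0 bp. Within 10 kb the shares were 48.1%, 45.7%, 37.3% and 48.7% in the same order, so the 2 outer classes were level. None of these shares was matched on ChIP reads. In peaks in the usual order, the share within 10 kb was 32.4% at 35 to 53 ChIP reads and 60.7% at 143 or more.

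Inverted peaks were spread over the chromosomes in proportion to all peaks. They made up 7.55% to 16.5% of the peaks on the 17 chromosomes with at least 50 peaks, and the exact 95% interval held the overall 12.3% on all 20 chromosomes with peaks. Chromosome 15 had the most, 87 of 591 (14.7%, 11.96% to 17.8%), followed by chromosome 11 with 75 of 599, chromosome 8 with 72 of 500 and chromosome 4 with 55 of 497. Chromosome 14 had none among 19 peaks (exact upper limit 17.6%), and the X chromosome had 1 among 3. On chromosome 15 the inverted peaks had a median of 105 ChIP reads, against 87 over all inverted peaks. In 7 stretches of chromosomes 4, 8, 11 and 15, each with over 200 peaks, the share was between 10.4% (25 of 240 peaks at 130 to 140 Mb of chromosome 4) and 15.8% (53 of 336 peaks beyond 80 Mb of chromosome 15). Peaks of 1 chromosome are not replicates, so the intervals describe the list.

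**Figure D5:**
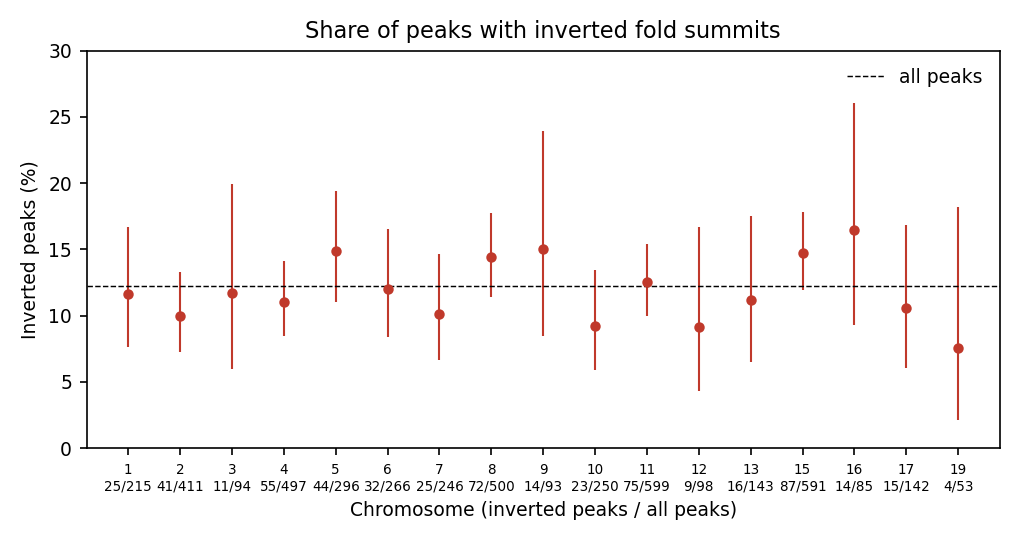
Share of inverted peaks on each chromosome with at least 50 peaks, in percent, with exact 95% intervals; the dashed line is the share over all peaks. All 17 intervals cross the line at 12.3%.

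Inverted peaks as a whole were not closer to other peaks than peaks of the same ChIP read number, though single bins went both ways. Another peak lay within 10 kb, between midpoints, of 253 of the 569 (44.5%, 40.3% to 48.7%) and of 40.6% of the others, but of 43.8% of the others at matched ChIP reads. The difference after matching was 0.62 percentage points (-3.51 to 4.81, with the matched share of the others taken as fixed). By bin of ChIP reads, the share was higher in inverted peaks in 5 of 10 bins, with differences from -8.99 to 13.8 percentage points. Within 1 kb the shares were 10.4% and, matched, 9.10%, and within 100 kb they were 84.9% and 84.2%. The closest neighbour of any inverted peak was 330 bp away, and the median distance to the nearest peak was 12511.5 bp, against 13273.5 bp in the others at matched ChIP reads. Inverted peaks did not keep company with each other: the nearest peak was inverted for 60 of the 569 (10.5%, 8.14% to 13.4%) and for 12.5% of the others. In runs of peaks joined at 10 kb the share of inverted peaks was 11.6% for single peaks, 11.1% in pairs, 12.3% in runs of 3 and 17.0% (104 of 612, 14.1% to 20.2%) in runs of 4 or more. In runs of 5 or more it was 18.3% (65 of 356, 14.4% to 22.7%), with the whole interval above the 12.3% of all peaks. These shares were not matched on ChIP reads.

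When inverted peaks were joined to each other at 10 kb, 69 lay in 32 runs of 2 or more, a number not compared with other sets of peaks. Of these, 11 lay in runs of 3 or more inverted peaks, in 3 places. The largest such run, on chromosome 5 (mm9, 125620653 to 125640011), held 5 inverted peaks among 8 peaks over 19.4 kb. Its inverted peaks had 536 ChIP and 42 input reads (18.3-fold, 13.4 to 25.7) with summit distances of -36 to -1 bp, and 2 of the 5 were inverted by reads. On distal chromosome 7 (149743519 to 149755277), all 3 peaks over 11.8 kb were inverted, with 491 ChIP and 23 input reads (30.7-fold, 20.2 to 48.8), and 1 was inverted by reads. On chromosome 15 (102829363 to 102833353), 3 of 4 peaks over 3.99 kb were inverted, with 273 ChIP and 18 input reads, and none was inverted by reads.

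Among the 10 best ranked inverted peaks, 4 lay on chromosome 15 and 5 were inverted by reads too. The first, at authors' rank 4, was a 695 bp region on chromosome 15 (78985907 to 78986601) with 137 forward and 145 reverse ChIP reads and 3 input reads, a 135.0-fold excess (45.7 to 658.7). Its fold and read summits coincided at a distance of -110 bp, and it had the most ChIP reads of all inverted peaks. The next, at rank 5 (chromosome 15, 82997449 to 82998004), had 118 forward and 123 reverse reads, 90 of the total of 241 in its busiest window, and 16 input reads (21.6-fold, 13.1 to 38.5). Its fold summits were inverted by a distance of -3 bp only, and its read summits had the usual order at 11 bp. The peak at rank 35 on chromosome 8 (122931833 to 122932393; 166 ChIP, 10 input reads) was alike in this, with distances of -5 bp by fold and 73 bp by reads. The peak at rank 26 on chromosome 15 (85343022 to 85343636) was inverted by -82 bp on both measures, with 173 ChIP and 4 input reads (62.1-fold, 23.8 to 230.6). The peaks at rank 68 on chromosome 8 (107795684 to 107796050) and rank 77 on chromosome 7 (152362581 to 152362998) had 117 and 120 ChIP reads with 2 input reads each, and were inverted by -11 and -12 bp on both measures. The other four, at ranks 25, 37, 60 and 95, had 126, 176, 230 and 111 ChIP reads, and 1 of them, on chromosome 15 (83000827 to 83001284), was inverted by reads. Of these 10, 9 had another listed peak within 10 kb. Among all inverted peaks with 108 to 120, 121 to 142 and 143 or more ChIP reads, the shares were 59.6%, 45.6% and 69.5%. In the other peaks they were 45.9%, 54.3% and 60.7%. With 10 peaks picked by rank, nothing is read from the count.

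The most inverted peak had its reverse summit far before its forward summit by both measures. It lay on chromosome 17 (34729141 to 34729881) with a distance of -373 bp by fold and by reads, 86 forward and 100 reverse ChIP reads and 6 input reads (44.5-fold, 20.1 to 122.9). Its busiest window held 42 of the 186 ChIP reads, and its recorded maxima spanned 541 bp of the 741 bp region. The next, on chromosome 11 (117775264 to 117776034), had -333 bp by both measures with 165 ChIP and 5 input reads, of which 36 ChIP reads were in the busiest window. On chromosome 4 a pair of peaks had almost equal fold distances of -333 bp (132978756 to 132979520) and -332 bp (139136397 to 139137128). By reads, the second was inverted at -332 bp, while the first had the usual order at 9 bp, and they had 13 and 8 input reads. The fifth, on chromosome 15 (38399879 to 38400491), stood at -304 bp by fold and 16 bp by reads, with 130 ChIP and 9 input reads. The order by fold thus rested on different evidence within the 5 most inverted peaks, 3 of which were inverted by reads.

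The longest inverted regions ranged from 792 to 882 bp, and 3 of the 5 were inverted by reads. The longest, on chromosome 6 (87739001 to 87739882), had 189 ChIP and 8 input reads, with 35 in its busiest window and distances of -130 bp by fold and -70 bp by reads. Next in length came a chromosome 10 region (126625217 to 126626070) of 161 ChIP and 7 input reads, with -251 bp by both measures and the widest span of recorded maxima among inverted peaks, 637 bp. The fifth, on chromosome 5 (138188090 to 138188881), had a fold distance of -2 bp in 792 bp, with 171 and 10 reads. Over all inverted peaks the listed length went with the distance, with a median of 534 bp at -100 bp or less and of 377, 367 and 324 bp in the classes nearer to 0 bp.

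The inverted peaks with the most input reads had the usual order by reads. The 2 with 21 input reads lay on chromosome 8, at 124846335 to 124847074 with 240 ChIP reads (16.4-fold, 10.5 to 27.0) and at 129350260 to 129351109 with 182 (12.5-fold, 7.91 to 20.6). Their distances were -50 and -237 bp by fold, and 164 and 24 bp by reads. A peak on chromosome 5 (125582940 to 125583596) had 199 ChIP and 20 input reads, with -8 bp by fold and 102 bp by reads. A peak on chromosome 15 (101782708 to 101783194) had 139 and 17 reads, with -98 and 192 bp. The fifth was the chromosome 15 peak at authors' rank 5, described above. Of the inverted peaks with the most ChIP reads, one not yet named lay on chromosome 13 (95378337 to 95378917) and had 221 ChIP and 11 input reads, -162 bp by fold and 283 bp by reads.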

How the data were processed

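The column names, per the file headers, are those written by CisGenome, a peak caller; the build, mm9, is from the submitters' processing notes. The sources used here do not give the aligner, filters or thresholds, nor how replicates were combined. Per the file headers, the authors' table holds whole-number read counts for ChIP and input per region, per strand and in the busiest window. The deposited fold is a log2 value with a pseudocount of 1: with input scaled by 0.6961, whole counts gave it within 0.0001 in 100% of peaks (84.1% unscaled). The deposited strand balance is a fraction, the smaller over the larger of the linear window folds of the strands. The rank and the summit distance are a score and a distance from the authors' peak caller. Ranks run to 4688, and 50 ranks were not analysed here. Whole-library depth is unknown here. Reads within peaks were 388156 for ChIP and 20321 for input.

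Peaks with a summit distance of 0 bp or less were compared with all others, which were weighted to the inverted peaks' shares of 10 bins of ChIP reads (edges at their deciles). The span runs from the first to the last recorded maximum, leaving out input maxima of 0 reads. Intervals are exact (Clopper-Pearson or Poisson, 95%), cover counting error only, and treat reads and peaks as independent, which PCR copies and neighbouring peaks are not. Those of the matched difference and ratio rest on the interval of the inverted peaks alone, with the matched value of the others taken as fixed. The members, lists and measures were chosen with earlier results of these data known. The rule for named regions took the 10 best ranked inverted peaks, the 5 longest, the 5 with the most ChIP reads, the 5 most inverted, the 5 with the most input reads and all runs of 3 or more at 10 kb. The span, the read summits and the class limits were added after the data were seen. Positions are on mm9 as deposited. No annotation of that build was used, so peaks were not assigned to genes and no sequence is shown. The functions were tested on simulated data. Python 3.11.15, numpy 2.4.6, pandas 2.3.3, scipy 1.17.1 and matplotlib 3.10.9 were used.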

Additional observations from a re-analysis of the deposited data

How the results depend on the processing

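The share of inverted peaks, 12.3%, was 11.8% to 12.0% under 4 alternatives and 6.81% when read summits replaced fold summits. The difference in listed length at matched ChIP reads, 312 bp, was 310 to 317 bp under 3 alternatives. For the span of recorded maxima, another quantity that is partly set by the summits, the difference was -3 bp. The ratio of ChIP reads, 1.19, was 1.20 in the better ranked 2319 and 1.18 in the 1000 best ranked. It was 1.03 in the busiest window and reversed to 0.22 per 100 bp of listed length, a length bounded differently in the 2 sets. The ratio of input reads, 1.15, was 1.18 with strata of equal ChIP reads (4 inverted peaks had no counterpart), 1.32 without matching and reversed to 0.90 for the 204 peaks inverted by reads too. The pooled excess over input, 24.4-fold, was 17.0 without scaling, 18.3 in the busiest windows, 32.7 in the better ranked 2319, 35.7 in the 1000 best ranked and 31.5 in the 204. The rank follows the deposited window fold, and for the other changes the cause was not tested. The share on chromosome 15, 14.7%, stayed between 14.4% and 15.4% under 3 alternatives. Of 48 values for the other chromosomes, 46 stayed within their interval; with at least 20 reads on the weaker strand, chromosome 2 fell to 5.43% and chromosome 12 to 2.56%. The difference in neighbours within 10 kb, 0.62 percentage points, was -2.12 to 3.82 under 7 alternatives, all within its interval. The read summits, the span, the busiest-window distance and the 204 peaks were alternatives chosen after seeing the data. No paired analysis was possible because peaks have 1 value for ChIP and 1 for input, with no replicate columns, and no replicate could be left out. Read number limits single peaks: with 2 input reads the interval of a fold spans over an order of magnitude.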

Other observations

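In 4 inverted peaks, more than 85% of the ChIP reads lay in a single window, a limit chosen after the values were seen. This was 0.70% of inverted peaks, and 8 of the other peaks (0.20%) passed the same limit. The strongest was on chromosome 3 (5860537 to 5860826), where the busiest window held 117 of 133 ChIP reads, the highest window count of any inverted peak, and 10 of 11 input reads. Its strands had 60 forward and 59 reverse reads in their busiest windows, its read summits were only -3 bp apart, and its excess over scaled input was 17.4-fold (9.40 to 35.6). The others were on chromosome 8 (56205934 to 56206133, with 38 of 38 ChIP reads in the window, and 19982858 to 19983057, with 39 of 42) and chromosome 16 (91534745 to 91535000, with 47 of 50). All 4 were inverted by reads as well, with read summit distances of -15 to -3 bp, and in the 4 of them 24 of 27 input reads lay in the busiest input window. That their reads lie close together is how they were chosen.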
